A study of Homo sapiens with 16 samples.

Results

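The first hours of HER2 inhibition were followed in the breast cancer line SUM225, whose cells carry an amplified and over expressed HER2 (ERBB2) gene. The 4 arrays compared here were those of 0, 3, 6 and 9 h after the addition of 1 µM CP724,714, out of 16 arrays taken every 3 h up to 45 h, and they were chosen by the time in their labels. CP724,714 blocks the kinase activity of HER2. RNA was hybridised to Illumina bead arrays, with 1 array per time point. Parallel plates for the time points are described in the study's methods for other cell lines. Per the labels all cultures, 0 h included, grew in Ham's F-12 medium with 5% fetal bovine serum, 5 µg/ml insulin and 1 µg/ml hydrocortisone. The study's methods place SUM225 in serum-free medium with hydrocortisone but with neither insulin nor epidermal growth factor (EGF). Whether serum and insulin were present is therefore not settled, and hydrocortisone is named by both sources. The 0 h array stood alone as the untreated state, and no untreated course over the same hours was analysed here. SUM225 is a single cell line, and all p-values measure the spread between single arrays, 1 per time point. For other cell lines the study's methods state that medium was changed when treatment began. A change caused by handling or fresh medium and a change caused by the inhibitor cannot be told apart in these 4 arrays.

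HER2 has no ligand of its own and signals in pairs with other ERBB receptors, mainly through the RAS, RAF, MEK and ERK kinases and through PI3K and AKT. Active ERK switches on immediate early genes within minutes and also the genes of its own brakes, the dual-specificity phosphatases and the Sprouty and SPRED proteins. Many of these transcripts are short lived. AKT keeps the FOXO transcription factors out of the nucleus, and insulin acts on the same step, so FOXO targets are held low while growth factor signalling is active.

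The 4 arrays were similar in overall quality. Median signal lay between 242 and 296, and between 14160 and 14778 of the 24526 probes (57.7% to 60.3%) were detected, that is, their p-value against the negative controls of the array was under 0.05. All 12 epithelial markers on the array, among them CDH1, KRT7, KRT8 and KRT19, were detected on all 4 arrays, as were the HER2 amplicon genes ERBB2, GRB7 and STARD3. Of 10 stromal, leukocyte and endothelial markers, COL3A1, DCN, LUM and PTPRC were detected on none of the 4 arrays, while CD14 (log2 values of 11.03 to 11.63) and PECAM1 (7.59 to 8.15) were detected on all 4. Their part in the results was not tested.

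Values are log2 intensities after background correction and quantile normalization, and a difference of 1 log2 unit is a change of 2-fold. Dim probes are compressed by the offset used, so their differences are understated. Probes with a detection p-value under 0.05 on 3 or more of the 16 arrays were tested, which left 16110 probes of 13022 genes. The array at 3 h differed from 0 h by a root-mean-square of 0.35 log2 units over these probes, the array at 6 h by 0.47 and the array at 9 h by 0.52. The later arrays also differed from each other, by 0.40 between 3 and 6 h, 0.36 between 6 and 9 h and 0.47 between 3 and 9 h. The difference between 3 and 9 h was thus larger than that between 0 and 3 h and smaller than that between 0 and 9 h.

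The 0 h array was first compared with the mean of the 3 later arrays by limma on these 4 arrays. At an adjusted p under 0.05, 9 probes were higher (0.0559% of the probes tested) and 7 were lower (0.0435%), so that 56.2% of the calls were higher (41.2% without background correction), and 1063 probes had an unadjusted p under 0.05. The error came from the spread of the 3 later arrays, which also holds any true change between 3 and 9 h, with 2 residual degrees of freedom. It also rested on single arrays. Without the 3 h array 912 probes were past the threshold, without the 6 h array 3 and without the 9 h array 49. When the spread was taken from all 16 arrays, 376 probes passed (184 higher and 192 lower), and these included the 16.

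The order of the 3 later arrays was used to separate an immediate change from a gradual one. A straight line in hours was fitted to the arrays of 3 to 9 h, with further lines for 12 to 21 h, 24 to 33 h and 36 to 45 h that served for the error, and 0 h had a term of its own. The line at 3 h minus the 0 h value is the change already present at 3 h, and the line at 9 h minus the line at 3 h is the gradual change. In the 3 h comparison 84 probes were higher (0.521%) and 122 were lower (0.757%), and when arrays were scaled by their median only, 27.1% of the calls were higher in place of 40.8%. From 3 to 9 h, 868 probes rose (5.39%) and 776 fell (4.82%). Both changes were called for 78 probes, of which 33 were lower at 3 h and then rose, 18 were lower and fell further, 23 were higher and rose further and 4 were higher and then fell. The median over all probes tested was 0.01 log2 units in each comparison. The gradual call needs its end points, since without the 3 h array 9 probes passed and without the 9 h array 254, and every 3 h call rests on the single 0 h array.

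Single arrays gave the same order without a test. At least 1 log2 unit from 0 h separated 277 probes at 3 h, 714 at 6 h and 957 at 9 h. On all 3 arrays together 43 probes were at least 1 log2 unit above 0 h (0.267%) and 52 below it (0.323%). The 1432 probes that reached 1 log2 unit on any of the 3 arrays were sorted by course, with percentages given of all 16110 probes tested. A difference that was held from 3 h, at or above 2/3 of its largest size at both 3 and 9 h, was found for 76 higher (0.472%) and 96 lower probes (0.596%). Stepwise changes, which grew from 3 to 6 to 9 h and had reached under 50% of their 9 h size at 3 h, were counted for 255 higher (1.58%) and 344 lower probes (2.14%). A difference that was largest at 3 or 6 h and had returned by over 50% at 9 h was found for 89 higher (0.552%) and 181 lower probes (1.12%). Another course was taken by 182 higher (1.13%) and 209 lower probes (1.3%).

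**Figure D1:**
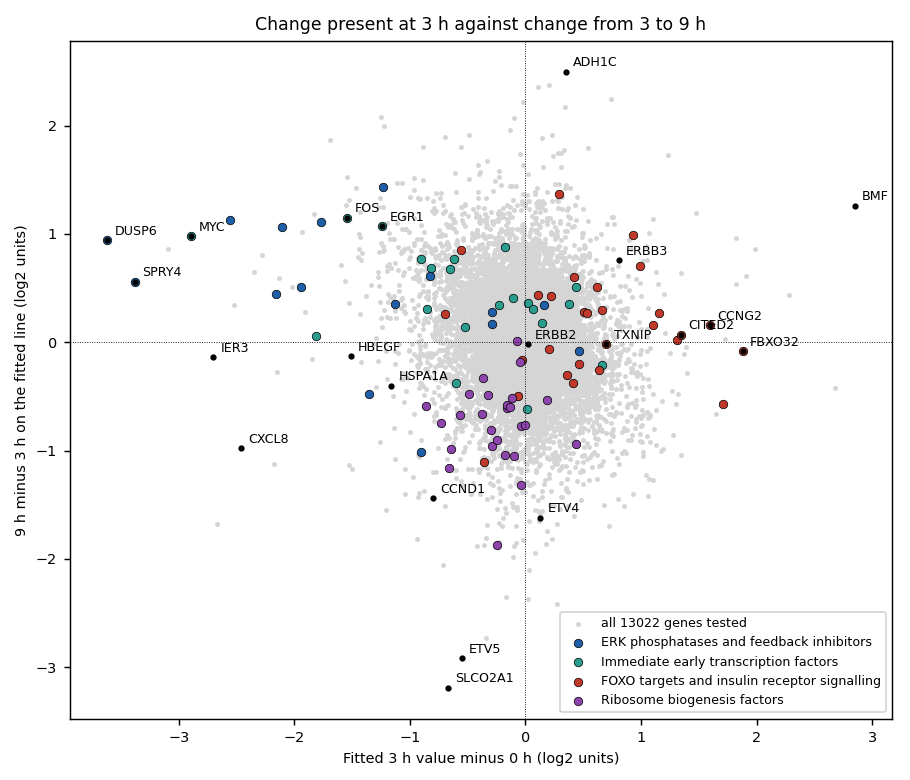
The fitted change at 3 h against 0 h (horizontal axis, log2 units) is plotted against the change from 3 to 9 h on the fitted line (vertical axis, log2 units) for the brightest probe of each of 13022 genes (grey), with members of 4 gene lists in colour and some genes labelled. Inhibitors of ERK signalling lie mostly at the left, with DUSP6 at -3.62, FOXO targets mostly at the right, and ribosome biogenesis factors nearer 0 at 3 h and mostly below 0 afterwards.

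The phosphatases and feedback inhibitors of ERK had the lowest median at 3 h of all lists. Of 19 genes 16 were tested, and 10 were lower at 3 h and 0 higher, against 0.757% and 0.521% of all probes tested. At 3 h 14 of 16 were below 0, and the median was -1.29 log2 units against 0.01 over all probes tested. In all, 7 were at least 1 log2 unit below 0 h on all 3 arrays. Without the 3 h array, when the line was carried back from 6 and 9 h, 5 were called. DUSP7, DUSP9 and SPRY3 were detected on too few arrays to be tested.

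DUSP6 encodes the cytoplasmic phosphatase that removes phosphate from ERK itself. Its log2 values on the arrays of 0, 3, 6 and 9 h were 11.25, 7.37, 8.60 and 8.30. The fitted difference at 3 h was -3.62 ± 0.34 (SE) log2 units, or 12.3-fold lower (limma, adjusted p = 5.94e-06). In the comparison with the mean of 3 to 9 h this probe gave -3.15 (adjusted p = 0.073), while a dimmer DUSP6 probe was called (adjusted p = 0.042). That probe fell from 9.89 to 5.16, where it was not detected, at least 13.4-fold. Both probes were thus lower on each of the 3 later arrays than at 0 h.

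SPRY4 encodes a Sprouty protein, which blocks the path from receptor tyrosine kinases to RAS and RAF. Its log2 values were 10.65, 7.05, 7.99 and 7.61 at 0, 3, 6 and 9 h, and the mean of the later arrays was -3.10 ± 0.37 (SE) log2 units from 0 h (limma, adjusted p = 0.042). SPRY2 went from 11.39 to 8.67, 9.72 and 9.79, and SPRY1 from 10.77 to 8.97, 9.61 and 10.08. The 3 Sprouty genes were lowest at 3 h and stayed below 0 h at 9 h. From 3 to 9 h SPRY2 rose by 1.13 ± 0.26 (adjusted p = 0.0115) and SPRY1 by 1.11 ± 0.18 (adjusted p = 0.00114), while the estimate for SPRY4 was 0.56 ± 0.41 (adjusted p = 0.458).

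The nuclear phosphatases DUSP4 and DUSP5, which also act on ERK, had fitted differences at 3 h of -2.16 and -2.11 log2 units (adjusted p = 0.0088 and 1.2e-06). DUSP5 then rose by 1.06 ± 0.17 (adjusted p = 0.00117), from 9.16 at 3 h to 10.22 at 9 h against 11.30 at 0 h. ERRFI1, which binds ERBB receptors and inhibits their kinase domains, had log2 values of 13.06, 11.07, 11.46 and 11.58. SPRED2, an inhibitor of RAS signalling, had a fitted difference of -1.35 (adjusted p = 0.0439), DUSP10, which acts on the stress kinases p38 and JNK, of -1.13 (adjusted p = 0.023), and DUSP8 of -1.23 (adjusted p = 0.0489). The DUSP8 probe was not detected at 3 h, so its fall from 6.81 was at least 1.58-fold, and it stood at 6.92 at 9 h. SPRED1 was late, with values of 12.49, 11.82, 10.62 and 10.80 and a change of -1.01 ± 0.31 from 3 to 9 h (adjusted p = 0.0437).

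Not every brake was lower. DUSP1, a phosphatase that stress and glucocorticoid also induce, had log2 values of 11.91, 11.96, 12.45 and 12.30 (3 h difference 0.16, adjusted p = 0.782). DUSP14 was at 12.50 and 12.24 at 0 and 3 h, and IL17RD at 9.37 and 9.70, both without a call. Over the 16 genes tested the gradual change had a median of 0.48 log2 units, with 4 genes rising (SPRY2, DUSP5, SPRY1 and DUSP8) and SPRED1 falling. Over all probes tested 5.39% rose and 4.82% fell in that interval.

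**Figure D2:**
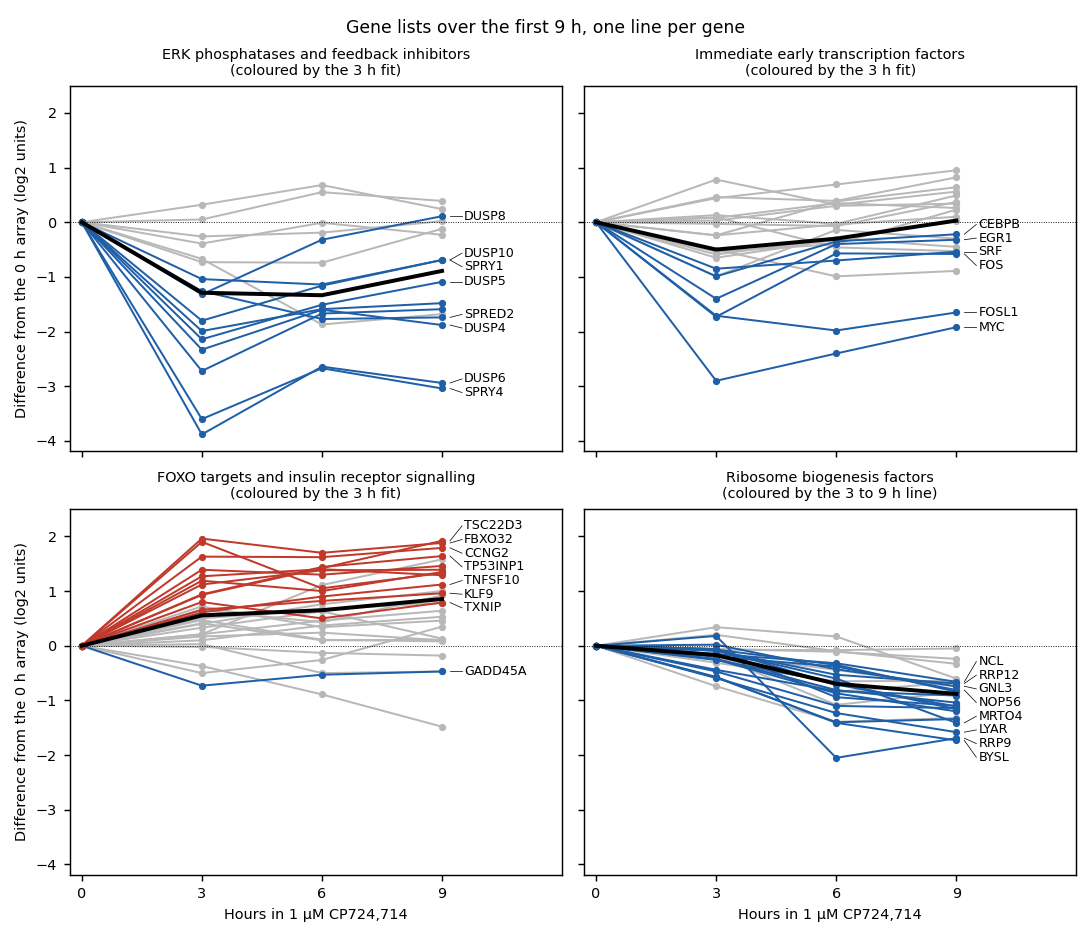
Difference of each array from the 0 h array in log2 units (vertical axis) at 0, 3, 6 and 9 h (horizontal axis), with a line per gene and the list median in black. Blue and red lines were called lower or higher in the comparison named above each panel and grey lines were not. The list median of ERK inhibitors was -1.29, -1.33 and -0.89 at 3, 6 and 9 h, that of immediate early factors -0.50, -0.30 and 0.03, that of FOXO targets 0.56, 0.65 and 0.85, and that of ribosome biogenesis factors -0.17, -0.69 and -0.88.

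Some of the immediate early transcription factors fell. Of 21 tested, 6 were lower at 3 h and 0 higher, against 0.757% and 0.521% of all probes tested. The list median was -0.52 log2 units. From 3 to 9 h 6 rose and 0 fell, against 5.39% and 4.82% of all probes tested. Without the 3 h array 1 factor was called lower. MYC, which drives growth and biosynthesis genes, had the largest difference. Its log2 values were 11.06, 8.17, 8.66 and 9.15, a fitted difference at 3 h of -2.89 ± 0.23 (SE) or 7.44-fold lower (limma, adjusted p = 1.18e-06), followed by a rise of 0.98 ± 0.24 (adjusted p = 0.0136). MYC remained 3.77-fold below 0 h at 9 h.

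FOSL1, a FOS family partner of JUN, was held low at 6.53, 6.26 and 6.59 against 8.24 at 0 h. FOS itself and EGR1, a zinc finger factor, were lowest at 3 h and closer to 0 h afterwards. FOS had log2 values of 9.92, 8.18, 9.34 and 9.34, and EGR1 10.68, 9.28, 10.28 and 10.35. Their fitted differences at 3 h were -1.54 ± 0.26 and -1.24 ± 0.25 (adjusted p = 0.00372 and 0.0144), and each rose afterwards, FOS by 1.15 ± 0.27 (adjusted p = 0.0126) and EGR1 by 1.07 ± 0.26 (adjusted p = 0.0144). SRF, the factor that binds with ERK-dependent ETS partners at immediate early genes, had a 3 h difference of -0.85 ± 0.18 (adjusted p = 0.023), and CEBPB, a bZIP factor, of -0.90 ± 0.12 (adjusted p = 0.000304). CEBPB was also among the 6 that rose afterwards, with values of 15.42, 14.43, 15.07 and 15.21.

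The other members did not pass at 3 h. JUN had log2 values of 12.24, 11.25, 12.10 and 11.94 (fitted difference -0.82, adjusted p = 0.137). JUNB (9.22 at 0 h and 8.98 at 3 h), JUND (14.43 and 14.47), FOSB (7.60 and 8.06), EGR3 (8.86 and 8.94) and ATF3 (10.02 and 9.78) were also without a call at 3 h, and ATF3 and KLF10 rose from 3 to 9 h by 0.88 and 0.77 (adjusted p = 0.00665 and 0.0336).

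The CArG box, the element that SRF binds, was searched on both strands in the 250 bases before the most upstream start that RefSeq lists for a gene (GRCh38.p14). It was found for 3 of the 85 genes lower at 3 h that had a listed promoter (3.53%, of 119 such genes) and for 115 of 9807 genes tested (1.17%). The 3 genes were EGR1, SRF and RND3, and the stretches that hold their boxes are shown with the boxes in capitals, since they include both factors described above. RND3 had a 3 h difference of -0.78 ± 0.17 log2 units (limma, adjusted p = 0.0266). The EGR1 stretch (chr5:138465344-138465435, + strand) and the SRF stretch (chr6:43171209-43171268, + strand) hold 2 boxes each, and the RND3 stretch (chr2:150487728-150487797, - strand) holds 1.
EGR1: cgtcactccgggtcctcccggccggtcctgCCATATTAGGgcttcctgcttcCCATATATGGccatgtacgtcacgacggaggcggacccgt
SRF: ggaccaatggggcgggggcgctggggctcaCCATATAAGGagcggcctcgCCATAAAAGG
RND3: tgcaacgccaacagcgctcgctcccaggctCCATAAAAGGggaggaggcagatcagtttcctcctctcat

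Immediate early genes other than transcription factors showed both directions. Of 23 tested, 10 were lower at 3 h and 3 were higher, against 0.757% and 0.521% of all probes tested. The list median was -0.60 log2 units, and without the 3 h array 4 were called lower. IER3, which encodes a stress and survival protein phosphorylated by ERK, gave the smallest adjusted p in the comparison of 0 h with the mean of 3 to 9 h. Its log2 value was 13.65 at 0 h and 10.91, 10.95 and 10.77 on the later arrays, a difference of -2.77 ± 0.17 (SE) (limma, adjusted p = 0.00575), and it did not move between 3 and 9 h beyond its error (-0.14 ± 0.17, adjusted p = 0.695). PHLDA1, a pleckstrin homology protein, went from 12.30 to 9.03, 9.99 and 9.88. The matricellular proteins CCN2 (CTGF) and CCN1 (CYR61) parted after 3 h, with CCN2 at 10.11, 7.79, 8.03 and 8.44 and CCN1 at 11.82, 10.49, 10.23 and 9.57. CCN1 fell by 0.92 on the log2 scale from 3 to 9 h (adjusted p = 0.00264).

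TRIB1, PLK2, IER5, ID1, ID3 and ZFP36 made up the rest of the 10, with fitted differences at 3 h from -1.25 (TRIB1) to -0.45 (ID3). The 3 genes that were higher were BTG1, an antiproliferative protein, SGK1, a kinase related to AKT that glucocorticoid induces, and ID2, a dominant negative HLH protein. BTG1 had log2 values of 13.50, 14.34, 14.47 and 14.58 and SGK1 11.14, 11.91, 12.16 and 12.27, so that neither overlapped its 0 h level. ID1 and ID3 were lower at 3 h while ID2 was higher, by 0.91 ± 0.20 (adjusted p = 0.0268).

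Transcripts known to fall under MEK inhibition in other cell lines split by time. Of 21 tested, 7 were lower at 3 h and 8 fell from 3 to 9 h, against 0.757% and 4.82% of all probes tested. The list medians were -0.46 and -0.39 log2 units. CXCL8, the chemokine interleukin 8, had log2 values of 13.99, 11.43, 11.25 and 10.45 and a mean difference from 0 h of -2.95 ± 0.35 (SE) (limma, adjusted p = 0.042). EPHA2, a receptor tyrosine kinase, was at 9.71, 7.35, 7.97 and 8.16, and CDC42EP2, an effector of CDC42, at 9.02, 7.11, 7.03 and 7.62. All 3 were low by 3 h, and EPHA2 rose by 0.81 from 3 to 9 h. CCND1, the D-type cyclin that starts G1 progression, went down in steps, with 14.84, 14.17, 13.04 and 12.73. Its change was -0.80 ± 0.16 at 3 h (adjusted p = 0.0126) and -1.44 ± 0.17 from 3 to 9 h (adjusted p = 8.12e-05), and at 9 h it was 4.3-fold below 0 h. ODC1, the first enzyme of polyamine synthesis, was at 11.94, 11.78, 11.15 and 10.31. It had no call at 3 h (-0.12 ± 0.16, adjusted p = 0.864) and fell by 1.48 on the log2 scale afterwards (adjusted p = 7.05e-05). PHLDA2 and TNFRSF12A fell in both intervals. Without the 3 h array 5 of the list were lower.

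Of 11 ETS factors tested, 1 was higher at 3 h, against 0.521% of all probes tested. From 3 to 9 h 1 rose and 2 fell, against 5.39% and 4.82%. ETV5 and ETV4 belong to the PEA3 group, which receptor tyrosine kinase signalling through ERK keeps expressed. ETV5 had log2 values of 10.55, 10.11, 8.30 and 7.19. It had no call at 3 h (-0.55 ± 0.28, limma, adjusted p = 0.493) and changed by -2.92 ± 0.29 from 3 to 9 h (limma, adjusted p = 2.08e-05). A dimmer ETV5 probe was at 7.49, 7.09, 6.75 and 6.98 and was not called (-0.11, adjusted p = 0.92). ETV4 was at 9.06, 9.23, 8.31 and 7.62 and fell by 1.62 (adjusted p = 0.00441). ELF3, an epithelial ETS factor, rose in both intervals, from 12.79 to 13.77, 14.27 and 14.52. ETS1 was at 9.70, 8.75, 7.88 and 8.26 and was not called at 3 h (-1.15 ± 0.32, adjusted p = 0.104). ELF3 was thus the member higher at 3 h, 0 were lower by limma, and 4 of the 11 had an unadjusted p under 0.05 in either direction.

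Of 17 cytokine, chemokine and NF-kB feedback genes tested, 2 were lower at 3 h, CCL2 and CXCL1, and 0 were higher, against 0.757% lower over all probes tested. CCL2, a monocyte attractant, fell from 12.61 to 9.88, 9.22 and 8.19, a fitted difference at 3 h of -2.67 ± 0.37 (SE) log2 units (limma, adjusted p = 0.000395) with a further -1.68 ± 0.39 (adjusted p = 0.0102), and at 9 h it was 21.3-fold below 0 h. CXCL1 was at 8.75, 6.78, 7.04 and 6.64. PTGER4, a receptor for prostaglandin E2, was among the 7 probes lower in the first comparison, with log2 values of 10.01, 7.57, 7.52 and 7.91 (-2.35 ± 0.27, adjusted p = 0.042).

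FOXO targets and genes of insulin receptor signalling were the list with the most members higher at 3 h. Of 28 tested, 12 were higher and 1 was lower, against 0.521% and 0.757% of all probes tested. The list median was 0.52 log2 units against 0.01 over all probes tested. On all 3 later arrays 7 were at least 1 log2 unit above 0 h. Without the 3 h array 3 were called higher. FBXO32, the muscle atrophy ubiquitin ligase atrogin-1, had log2 values of 12.21, 14.17, 13.91 and 14.09, a mean difference from 0 h of 1.84 ± 0.14 (SE) (limma, adjusted p = 0.0124). A second FBXO32 probe was at 10.98, 12.56, 12.30 and 12.49 (adjusted p = 0.042), and the third, dim probe was at 5.80, 5.81, 6.61 and 6.39 and was not called. At both brighter probes the higher level was complete at 3 h, and the change from 3 to 9 h of the brightest was -0.08 ± 0.16 (adjusted p = 0.823).

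CCNG2, an atypical cyclin found in resting cells, was at 9.23, 10.86, 10.84 and 11.02, and CITED2, a CBP and p300 binding protein, at 11.07, 12.45, 12.37 and 12.53. Their mean differences from 0 h were 1.68 ± 0.20 and 1.38 ± 0.16 (limma, adjusted p = 0.042 each). PDK4, the kinase that turns off pyruvate dehydrogenase, was highest at 3 h, with 10.78, 12.67, 11.83 and 12.11 (fitted difference at 3 h 1.71 ± 0.21, adjusted p = 9.26e-05). HBP1 and BCL6, both transcriptional repressors, reached 11.90 from 10.63 and 14.05 from 12.86 at 3 h and stayed there. MXI1, an antagonist of MYC at MAX, was not detected at 0 h and was at 7.08, 7.35 and 7.36 afterwards, at least 2.32-fold higher on average, while its other 2 probes were not called.

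TXNIP, an inhibitor of thioredoxin and glucose uptake, KLF9, a Kruppel-like factor, TNFSF10, the death ligand TRAIL, TP53INP1, an autophagy related p53 target, and TSC22D3 (GILZ) were also higher at 3 h. Of these TSC22D3, TP53INP1 and TNFSF10 rose further, and TSC22D3 had log2 values of 12.67, 13.59, 14.09 and 14.59. YPEL3 was late, at 11.75, 11.96, 12.86 and 13.33, with a rise of 1.37 ± 0.19 from 3 to 9 h (adjusted p = 0.00042). GADD45A was the lower member, at 11.03, 10.31, 10.50 and 10.56. IRS1, the insulin receptor substrate, had the lowest mean difference in the list, with 7.54, 7.17, 6.64 and 6.06, and was not called at 3 h or afterwards.

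TSC22D3, KLF9 and SGK1 are also induced by glucocorticoid, which both sources name in the medium. In a list of 14 tested glucocorticoid-responsive genes 4 were higher at 3 h (these 3 and ZBTB16) and 2 were lower (ANGPTL4 and ERRFI1). The shares over all probes tested were 0.521% and 0.757%. ANGPTL4, a secreted inhibitor of lipoprotein lipase, was at 11.48, 9.33, 8.71 and 8.21.

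The core of the FOXO binding element, GTAAACA on either strand (TGTTTAC on the other), was searched in the same 250 bases. Of the 66 genes higher at 3 h 51 had a listed promoter and 7 of these held it (13.7%), against 201 of 9807 genes tested (2.05%) and 0 of 85 genes lower at 3 h. When every start that RefSeq lists for a gene was searched, a count added after the first had been seen, the counts were 10 of 51 (19.6%) and 307 of 9807 (3.13%). Among genes that rose from 3 to 9 h the share was 2.25% (13 of 579) and among those that fell 2.76% (14 of 507). The ETS core CCGGAAG was present for 5.88% of the genes higher and 14.1% of those lower at 3 h, against 14.6% of all. The cAMP response element TGACGTCA was present for 5.88% and 3.53%, against 2.79%, and the E-box CACGTG for 17.6% and 4.71%, against 8.63%. These are counts of letters and were not tested.

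The 7 promoters are shown with the element in capitals, because they are the stretches in which these genes shared letters. FRAT1 and FRAT2, which bind the kinase GSK3, are neighbouring paralogs of chromosome 10 with nearly the same bases around the element, so they are not separate cases. JMY is a cofactor of p300 and actin nucleator, and KLHDC2 is a substrate receptor of a cullin ligase. Of the 7 genes, HBP1 and TXNIP are members of the FOXO list, while BTG1, FRAT1, FRAT2, JMY and KLHDC2 are not. They lie at chr12:92146019-92146085 (BTG1, - strand), chr10:97319209-97319270 (FRAT1, + strand), chr10:97334730-97334787 (FRAT2, - strand), chr7:107168800-107168866 (HBP1, + strand), chr5:79236067-79236130 (JMY, + strand), chr14:49768090-49768152 (KLHDC2, + strand) and chr1:145996667-145996733 (TXNIP, - strand).
BTG1: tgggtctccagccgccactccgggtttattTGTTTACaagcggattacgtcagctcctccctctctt
FRAT1: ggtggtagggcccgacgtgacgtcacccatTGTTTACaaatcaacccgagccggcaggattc
FRAT2: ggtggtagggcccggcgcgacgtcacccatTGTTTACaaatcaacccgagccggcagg
HBP1: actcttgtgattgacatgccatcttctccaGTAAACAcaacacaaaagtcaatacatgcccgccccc
JMY: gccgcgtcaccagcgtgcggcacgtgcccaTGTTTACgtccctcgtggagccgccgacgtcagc
KLHDC2: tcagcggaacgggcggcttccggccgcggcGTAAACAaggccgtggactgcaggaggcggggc
TXNIP: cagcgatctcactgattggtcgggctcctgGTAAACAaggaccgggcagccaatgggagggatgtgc

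The levels of these genes moved as follows. FRAT2 was at 11.38, 12.84, 12.51 and 12.56 and FRAT1 at 6.58, 7.93, 7.57 and 7.83, with fitted differences at 3 h of 1.40 ± 0.14 and 1.25 ± 0.24 log2 units (limma, adjusted p = 8.66e-06 and 0.0088). JMY was at 6.59, 7.95, 7.56 and 7.47, and TXNIP at 12.46, 13.26, 12.96 and 13.25. KLHDC2 had the smallest change of the 7 at 3 h, 0.49 ± 0.11 (adjusted p = 0.0321), and rose on, with 12.39, 12.83, 13.27 and 13.41.

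**Figure D3:**
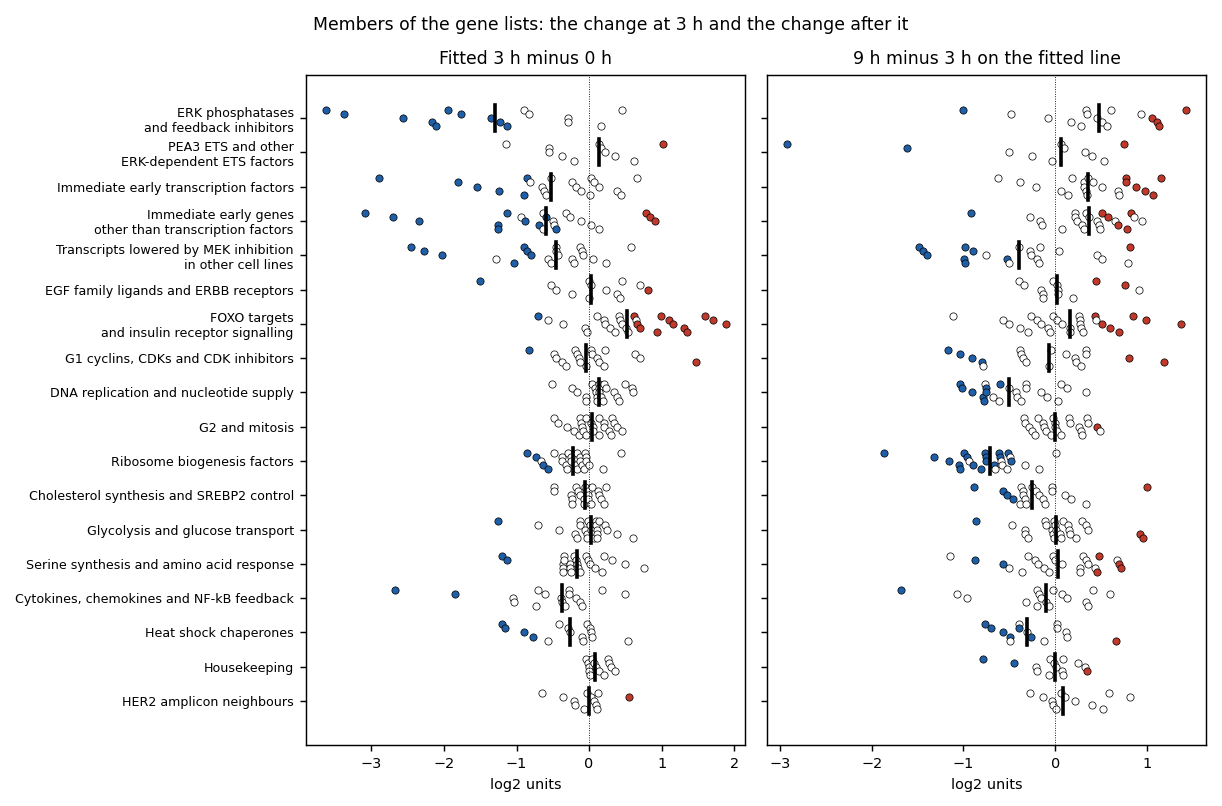
Each point is a gene of the list named at the left, placed at its fitted change at 3 h (left panel) or its change from 3 to 9 h (right panel) in log2 units, with the list median as a black bar. Filled points were called (blue lower, red higher) and open points were not. The medians of ERK inhibitors and FOXO targets at 3 h were -1.29 and 0.52, and the median of ribosome biogenesis factors was -0.21 at 3 h and -0.71 from 3 to 9 h.

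The largest rise at 3 h of all probes tested belonged to BMF, which encodes a BH3-only protein that promotes cell death by binding BCL2 family members. The brightest BMF probe went from 6.35 to 9.16, 9.92 and 10.42, a fitted difference at 3 h of 2.85 ± 0.20 (SE) log2 units or 7.21-fold (limma, adjusted p = 4.35e-07), and it rose by a further 1.26 ± 0.21 (adjusted p = 0.00129). Its mean difference from 0 h of 3.48 missed the threshold on the 4 arrays (adjusted p = 0.0514), whereas a second probe at 6.45, 9.12, 9.38 and 10.05 passed (adjusted p = 0.042). BMF was the only one of 14 BCL2 family genes tested that was called at 3 h, against 0.521% of all probes tested called higher. BCL2L11, which encodes the cell death protein BIM, was at 7.57, 7.90, 7.48 and 7.64 and was not called.

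CYP1A1 and CREBRF, members of no list, were also higher in the comparison with the mean of 3 to 9 h, as was MGC17330. CYP1A1, the cytochrome that the aryl hydrocarbon receptor induces, was at 8.21, 10.47, 10.76 and 10.91 (2.50 ± 0.24, limma, adjusted p = 0.042). CREBRF, a regulator of CREB3 named LOC153222 in the table, was at 6.50, 9.10, 9.12 and 8.68 (2.47 ± 0.28, adjusted p = 0.042). MGC17330, whose present name was not found and whose membership of a list is therefore open, was at 10.20, 12.21, 12.59 and 13.08 (2.43 ± 0.30, adjusted p = 0.0488). All 3 were above their 0 h level on each later array by more than 1 log2 unit.

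The ERBB receptors themselves were next examined. ERBB2 was at 16.10, 16.12, 16.11 and 16.11, close to the top of the array scale, so a rise could not be measured with this probe. A dimmer ERBB2 probe was at 10.01, 10.24 and 10.19 at 3, 6 and 9 h, which was 0.01, 0.24 and 0.19 log2 units above its 0 h value, and was not called at 3 h (0.06, limma, adjusted p = 0.932), nor was the dimmest, at 6.30, 6.63, 5.70 and 6.38. GRB7, the adaptor encoded beside ERBB2 in the amplicon, was higher. Its brightest probe, also near the top, was at 15.41, 15.96, 16.00 and 16.01 (fitted difference at 3 h 0.55 ± 0.10 log2 units, limma, adjusted p = 0.00698). The dimmer GRB7 probes moved more, at 13.68, 14.69, 15.01 and 14.94 and at 11.34, 12.40, 12.71 and 12.81 (1.07 and 1.09 at 3 h, adjusted p = 0.00619 and 0.0321). STARD3, another neighbour, was at 12.93, 12.86, 12.84 and 12.87. GRB7 was the single gene of 12 amplicon neighbours called at 3 h, against 0.521% of all probes tested called higher.

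ERBB3, the kinase-impaired partner through which HER2 reaches PI3K, rose in both intervals at its brightest probe, with 12.35, 13.03, 13.77 and 13.79. The changes were 0.81 ± 0.14 at 3 h (limma, adjusted p = 0.00479) and 0.76 ± 0.15 from 3 to 9 h (adjusted p = 0.00377). Its dimmer probes, at 10.10, 10.51, 10.71 and 10.64 and at 8.26, 8.80, 8.73 and 8.83, were higher on each later array but not called. EGFR was at 9.85, 10.03, 10.21 and 10.05 and was not called. HBEGF, a ligand of EGFR and ERBB4, was lower, with 8.31, 6.96, 6.42 and 6.83 (-1.51 ± 0.34 at 3 h, adjusted p = 0.0315). LRIG1, which promotes degradation of ERBB receptors, rose from 3 to 9 h (0.44 ± 0.14, adjusted p = 0.0462). Among 13 ligands and receptors tested 1 was higher and 1 lower at 3 h, against 0.521% and 0.757% of all probes tested.

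Ribosome biogenesis factors were the list with the most members called from 3 to 9 h. MYC is known to raise many of these genes. Of 26 tested, 17 fell from 3 to 9 h and 0 rose, against 4.82% and 5.39% of all probes tested. The median change was -0.71 log2 units against 0.01 over all probes, and 25 of 26 were below 0. At 3 h 4 were lower (RRS1, LYAR, GTPBP4 and the probe named NOL1), against 0.757% of all probes tested. The list median at 3 h was -0.21. The count of 17 depended on the end points, with 8 called without the 9 h array and 0 without the 3 h array, where 2 points were left for the line. DKC1, the pseudouridine synthase of ribosomal RNA, was at 13.92, 13.86, 13.21 and 12.81 (-1.05 ± 0.12, limma, adjusted p = 6.46e-05). MRTO4, an assembly factor of the large subunit, was at 11.89, 11.80, 11.29 and 10.48. BYSL, a factor of the small subunit, was at 11.68, 11.11, 10.27 and 9.95. NCL, the abundant nucleolar protein nucleolin, moved less, at 14.49, 14.34, 14.17 and 13.83. In each of the 4 genes the order of the arrays was that of time.

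Of 8 partners and antagonists of MYC tested, 2 were higher at 3 h and 1 rose from 3 to 9 h. The shares over all probes tested were 0.521% and 5.39%. MXD3 and MNT, antagonists of MYC at MAX, were higher at 3 h, MXD3 at 8.64, 9.45, 9.83 and 9.97 and MNT at 8.98, 10.11, 9.45 and 9.44. MXD4, of the same group, rose from 3 to 9 h, from 9.66 to 10.67 (1.01 ± 0.15 log2 units, limma, adjusted p = 0.000656). The other 5, MAX, MGA, MLX, MXD1 and MYCL, had no call.

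Genes of DNA replication moved after 3 h. Of 23 genes of DNA replication and nucleotide supply, 0 were called at 3 h by limma, with 3 at an unadjusted p under 0.05. From 3 to 9 h 8 fell and 0 rose, against 4.82% and 5.39% of all probes tested. Those that fell were MCM2, MCM3, MCM4, MCM5 and MCM6, subunits of the replicative helicase, MCM10, GINS2 and POLE2. MCM6 was at 14.12, 14.04, 13.64 and 13.02 (-1.02 ± 0.15, adjusted p = 0.000525) and MCM2 at 12.09, 12.21, 11.98 and 11.45. Without the 3 h array, and without the 9 h array, 0 of the list were called. CCNE1 and CCNE2, the cyclins that act at the start of S phase, fell by 0.91 and 1.04 on the log2 scale (adjusted p = 0.0106 and 0.0026), and CDC25A, which activates their kinase, by 1.17 (adjusted p = 0.0115). Of 24 genes of G2 and mitosis 0 were called at 3 h by limma, with 5 at an unadjusted p under 0.05. From 3 to 9 h 1 of the 24, TOP2A, rose, a share near the 5.39% of all probes tested.

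Inhibitors of cyclin-dependent kinases diverged. CDKN2C (p18), which binds CDK4 and CDK6, was higher at 3 h and rose on, with 8.25, 9.63, 10.51 and 10.82 (1.48 ± 0.17 and 1.19 ± 0.17 log2 units, limma, adjusted p = 4.58e-05 and 0.00049). Its dimmer probes, at 6.51, 6.68, 6.97 and 6.88 and at 6.12, 5.53, 5.02 and 5.38, were not called and the second lay below 0 h. CDKN1A (p21) was lower at 3 h, at 12.61, 11.84, 11.79 and 12.07 (-0.83 ± 0.16, adjusted p = 0.0085), and CDKN2B (p15) rose from 3 to 9 h by 0.80 (adjusted p = 0.00177).

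Among heat shock chaperones 4 of 15 tested were lower at 3 h (HSPA1A, HSPA1B, DNAJB1 and BAG3), against 0.757% of all probes tested. Without the 3 h array 1 chaperone was called lower. HSPA1A and HSPA1B, nearly identical genes whose probes may share transcripts, were at 15.80, 14.72, 14.30 and 14.32 and at 15.35, 14.45, 14.43 and 14.33. Both were called against the mean of 3 to 9 h (limma, adjusted p = 0.0488 and 0.042). The constitutive chaperones HSPA8, HSPD1 and HSPE1 and the co-chaperone DNAJA1 fell from 3 to 9 h by 0.39 to 0.70 on the log2 scale. In that interval 6 members fell and 1, DNAJB1, rose, against 4.82% and 5.39% of all probes tested.

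Metabolic lists were mostly without a call at 3 h. Of 21 cholesterol synthesis genes 4 fell from 3 to 9 h (HMGCS1, IDI1, SQLE and MVD), against 4.82% of all probes tested. In the same interval 1 of the 21, SREBF1, rose, a share near the 5.39% of all probes. In glycolysis and glucose transport 1 of 25 was lower at 3 h, against 0.757% of all probes tested. It was PFKFB3, which makes the allosteric activator of phosphofructokinase, at 11.93, 10.71, 11.08 and 11.62, and it rose from 3 to 9 h (0.92 ± 0.16 log2 units, limma, adjusted p = 0.00142). Of 24 genes of serine synthesis and the amino acid response tested, 2 were lower at 3 h and 0 were higher. The shares over all probes tested at 3 h were 0.757% and 0.521%. From 3 to 9 h 4 of the list rose and 2 fell, against 5.39% and 4.82% of all probes tested. TRIB3 and STC2, targets of the amino acid response factor ATF4, were lower at 3 h, at 14.08, 13.02, 12.95 and 13.32 and at 11.21, 10.03, 10.33 and 10.72. ATF4 itself rose from 3 to 9 h by 0.46 (limma, adjusted p = 0.0191). ASNS, the asparagine synthetase, fell later, from 13.47 at 3 h to 12.60 at 9 h. PHGDH, the first enzyme of serine synthesis, was at 15.85, 15.84, 15.81 and 15.82 and VAMP8, a vesicle protein of glucose transporter traffic, at 14.14, 14.25, 14.49 and 14.60. The PHGDH probe lay near the top of the array scale, so a rise could be understated. Neither PHGDH nor VAMP8 was called in the first 9 h (gradual change -0.02 ± 0.12 and 0.36 ± 0.12, limma, adjusted p = 0.935 and 0.0704). Their means over the arrays of 36 to 45 h were 14.93 and 15.20, hours that the study's own SUM225 course of both genes also covers.

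Of the clock genes, BHLHE40, a repressor, was lower at 3 h and returned, at 12.10, 10.64, 11.20 and 11.61. RORA was called higher at its brightest probe (6.29, 7.66, 7.60 and 7.55), and its other 2 probes lay at or below their 0 h level on average. Among 14 housekeeping genes 0 were called at 3 h by limma, with 2 at an unadjusted p under 0.05, and the list median was 0.08.

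Among the brightest probes of genes, the 5 largest gradual changes in each direction belonged to genes outside these lists, except for ETV5. SLCO2A1, a prostaglandin transporter, fell from 9.79 at 3 h to 7.91 and 6.60 (-3.19 ± 0.28 log2 units, limma, adjusted p = 5.75e-06), against 10.37 at 0 h. DHRS9, a retinol dehydrogenase, was at 9.60, 9.30, 7.82 and 6.57. LAT2 and FGD5 were not detected at 9 h and had fallen at least 3.21-fold and 3.65-fold from 3 h. ADH1C and ADH1A, near-identical alcohol dehydrogenases whose probes may share transcripts, were at 6.99, 7.34, 8.60 and 9.84 and at 7.33, 8.17, 8.98 and 10.42. SLC6A12, a betaine transporter, was at 6.81, 6.64, 8.18 and 8.87. DNAI7 and HS3ST6, below detection at 3 h, had risen at least 2.2-fold and 2.53-fold by 9 h.

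The next array, at 12 h, was set beside that of 9 h. Of the ERK inhibitors lower at 3 h, 10 of 10 stood higher at 12 h than at 9 h, by a median of 1.01 log2 units, and so did 110 of the 122 probes lower at 3 h (90.2%), against 51% of all probes tested. DUSP6 was at 10.02 and MYC at 10.40 at 12 h. Of the 17 ribosome biogenesis factors that fell from 3 to 9 h, 16 stood higher at 12 h than at 9 h (median 0.47). Their median difference from 0 h was -1.11 at 9 h and -0.77 at 12 h. Of the 84 probes higher at 3 h, 19 stood higher at 12 h than at 9 h (22.6%, median -0.21 log2 units). Their median difference from 0 h was 1.33 at 9 h and 1.17 at 12 h. Of the 12 FOXO genes that were higher at 3 h 6 were higher and 6 lower at 12 h than at 9 h (median -0.03). The cause of the difference between 9 and 12 h was not tested.

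**Figure D4:**
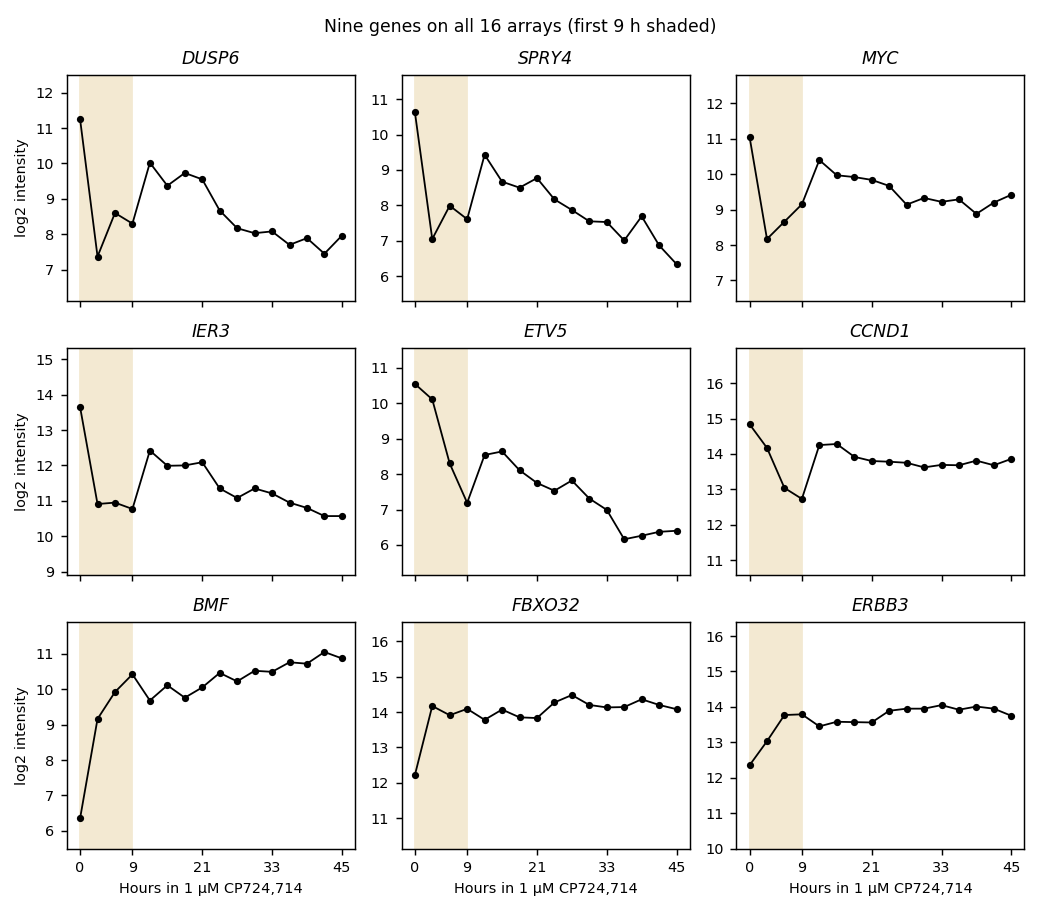
Log2 intensity (vertical axis, the same span in every panel) on each of the 16 arrays against hours in the inhibitor (horizontal axis), with 0 to 9 h shaded, for 9 genes. DUSP6, SPRY4, MYC and IER3 were lower at 3 h, ETV5 and CCND1 fell until 9 h, and BMF, FBXO32 and ERBB3 were higher on all later arrays.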

How the data were processed

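The deposited table held Illumina bead array signal intensities of SUM225 RNA at 16 time points, with a detection p-value per probe, and per the file headers the authors left it non-normalized. The study's methods name the Illumina human Ref8v2 array and quantile normalization in a section on the MCF10 lines and do not say so separately for SUM225. The scanning software is not given in the sources used here. Median signal over background limits the precision of dim probes. Background was corrected with the detection p-values and arrays were quantile normalized on the log2 scale (neqc, offset 16) in limma 3.58.1 under R 4.3.3, figures were drawn with matplotlib 3.10.9, and the code was tested on simulated data. Probes detected on at least 3 arrays were kept, and a gene was represented by its brightest probe. Of 18631 symbols 93.4% were matched to RefSeq (GRCh38.p14) by symbol, synonym or gene ID, 1231 were not, and 21 were calendar dates.

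The 0 h array was compared with 3 to 9 h by limma with an intensity trend and Benjamini-Hochberg adjustment over all probes tested. A second limma fit over all 16 arrays gave 0 h its own term and each later group of 4 or 3 arrays a line in hours (7 residual degrees of freedom). An exact permutation of 1 against 3 arrays cannot give a p under 0.25, so none was used. Gene lists, members and tests were chosen with earlier results of these data known. The rule for named genes took 7 fixed genes, the feedback, ETS and immediate early genes past the first test, the 10 largest falls and rises in it, the 5 largest gradual changes each way, and the extremes of every other list. Further genes were named from the lists after their values were seen. Background correction, offset, scaling, filters, the intensity trend and each array were varied. 1 list member is not reported here by name.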

Additional observations from a re-analysis of the deposited data

How the results depend on the processing

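No paired analysis was possible because 1 array stood for every time point. All 3 h calls rest on the single 0 h array, which could not be left out. The 16 calls of 0 h against the mean of 3 to 9 h became 4 with an offset of 50, 27 with median scaling, 32 with cyclic loess, 3 without the detection filter, 2 with detection on all 4 arrays and 0 in limma without the intensity trend, against 376 with the spread of all 16 arrays, and leaving out 1 array gave 3 to 912. The 206 calls at 3 h became 124 without the trend and 140 to 180 with 1 array left out. The 1644 gradual calls became 969 without the trend, and 9 without the 3 h array, 254 without the 9 h array and 1725 without the 6 h array. Of the probes past 1 log2 unit, 172 held their difference (334 at 1.7-fold, 54 without background correction, 88 with an offset of 50), 599 were stepwise (1161 at 1.7-fold, 212 without background correction) and 270 returned (655, 10 and 48 under those 3 settings and 170 with cyclic loess). The total of 1432 became 2958, 351 and 748, and the 95 past the limit on all 3 arrays became 219, 39 and 60. The causes were not tested.

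The mean difference from 0 h changed sign for the following genes, none of them called in that comparison. At another probe it was -0.06 for ERBB2, -0.83 for HMGA2, -0.80 for CDKN2C, 0.13 for MYCL, -0.11 and -0.14 for RORA and 0.34 for KRT18. PHGDH gave 0.04 with median scaling and 0.03 with cyclic loess, and POLR1B gave 0.00 with median scaling and -0.21 to 0.26 with 1 later array left out. Of 563 values of named genes under the alternatives, 470 kept direction and side of the threshold, 48 passed it newly, 34 lost it and 11 changed sign.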
